A study of Mus musculus with 4 samples.

Results

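The 9 genes described here identify neurons that release gamma-aminobutyric acid (GABA) and, among them, the projection neurons of the striatum. They were taken by symbol from the 55471 genes of the deposited count tables, and each symbol matched 1 gene. A general GABAergic set holds 3 of them, Gad1, Gad2 and Slc32a1, and a striatal set holds the other 6, Drd1, Drd2, Ppp1r1b, Adora2a, Rgs9 and Pde10a. The rule uses symbols only.

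GABA is the main inhibitory transmitter of the brain. Glutamate decarboxylase, which Gad1 and Gad2 encode as 2 separate enzymes, makes it from glutamate, and the vesicular transporter encoded by Slc32a1 loads it into synaptic vesicles. The principal neurons of the striatum are GABAergic and receive dense dopamine input. Those of the direct pathway carry the dopamine receptor Drd1, and those of the indirect pathway carry Drd2 and the adenosine receptor Adora2a. In both, cAMP signalling runs through Ppp1r1b, an inhibitor of protein phosphatase 1, and is limited by the phosphodiesterase Pde10a, while Rgs9 shortens G protein signals.

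RNA bound to tagged ribosomes was sequenced from 2 cuprizone and 2 mock libraries, all labelled astrocytes, brain, batch 1 and 3 weeks. All mice, mock included, were GFAP-Cre+/- Rpl22HA/wt: the GFAP promoter, active in astrocytes, drives Cre, and 1 allele of the ribosomal protein gene Rpl22 carries an HA tag for the pull-down. The series' design text describes males of 8 to 9 weeks, cuprizone at 0.2% by weight in chow (a copper chelator that kills oligodendrocytes), age-matched mice on normal chow, and micro-dissected corpus callosum. Its collection times (5, 5.5 and 7 weeks) differ from the labelled 3 weeks, and this was not settled. The labels do not say which GFAP-Cre line was used or whether a library came from 1 mouse or several. They call the libraries biological replicates, so p-values measure only the spread between these libraries.

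Library totals ran from 21209517 to 23822620 counts. A count of 0 was given an upper limit of 3 counts (95%, 1-sided, counting error only). This corresponds to 0.126 to 0.141 counts per 1000000 of the library total (CPM). Astrocyte markers were present in all libraries, with Gfap at 385 and 451 CPM in cuprizone and 963 and 870 CPM in mock replicates 1 and 2. Summed over 18 astrocyte markers the level was 9035 and 10508 CPM in cuprizone against 15105 and 14745 CPM in mock libraries; edgeR called 0 of the 18 (9 at an unadjusted p under 0.05), DESeq2 8 and limma-voom 4, all lower. Some other glial lists, but not all, also had lower sums in both cuprizone libraries. Over 12 microglia and macrophage genes the sums were 20.6 and 22.5 against 42.1 and 58.3 CPM. Over 6 oligodendrocyte precursor genes they were 35.9 and 64.0 against 79.5 and 87.8 CPM. Of these, 7 of 12 and 4 of 6 genes were lower in both cuprizone libraries, as were 18.9% of all genes tested. EdgeR and limma-voom called 0 in either list, 6 and 1 had an unadjusted edgeR p under 0.05, and DESeq2 called 5 and 1, all lower. Of all genes tested, 12.8% had such a p in either direction, DESeq2 called 4.71% and limma-voom 0.297%. The same shares apply beside the counts of every list below. Over 13 oligodendrocyte and myelin genes the sums overlapped between the groups. They were 10847 and 14110 CPM in cuprizone and 13459 and 15748 CPM in mock replicates 1 and 2. The median log2 fold of these 13 was -0.12, with 5 positive and 8 negative. EdgeR and limma-voom called 0 of them, and DESeq2 called 1 higher and 1 lower. Sums over 6 ependymal genes overlapped between the groups too. Neuronal RNA was present in every library, with 17816 to 19863 CPM over 18 genes taken as general neuronal markers. Snap25 alone gave 8292 to 10008 CPM of this sum. In this material, fewer cells of a type, less RNA per cell and differences in dissection or pull-down cannot be told apart. Cuprizone replicate 2 stood apart from the other libraries in genes of cerebellar granule cells, described below. The main results that rest on this library are given with and without it. Cuprizone replicate 1 also held some of these transcripts that were at 0 in mock (257 counts of Gabra6). Values without cuprizone replicate 2 therefore keep part of that difference between the groups.

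Stretches before the RefSeq start of the 3 GABAergic genes are shown because these genes shared their highest level in the same library. The windows come from the RefSeq promoter table (GRCm38.p6), cover 250 bases before the annotated start, and are printed 5′ to 3′ on the plus strand only outside the gene's own GENCODE M21 exons. Capitals mark matches, on either strand, to the GC box GGGCGG, the TATA box TATAAA, the CCAAT box, the homeodomain core TAATTA or the cAMP response element core TGACG; these motifs do not overlap one another in the stretches printed.
Gad1, chr2:70561879-70562041: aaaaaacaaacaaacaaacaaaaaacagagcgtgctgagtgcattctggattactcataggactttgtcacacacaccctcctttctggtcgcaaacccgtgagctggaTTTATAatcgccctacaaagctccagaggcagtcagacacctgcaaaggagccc
Gad2, chr2:22622077-22622204: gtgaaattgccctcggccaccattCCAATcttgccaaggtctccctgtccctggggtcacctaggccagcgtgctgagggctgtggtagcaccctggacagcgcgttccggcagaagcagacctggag
Slc32a1, chr2:158610508-158610757: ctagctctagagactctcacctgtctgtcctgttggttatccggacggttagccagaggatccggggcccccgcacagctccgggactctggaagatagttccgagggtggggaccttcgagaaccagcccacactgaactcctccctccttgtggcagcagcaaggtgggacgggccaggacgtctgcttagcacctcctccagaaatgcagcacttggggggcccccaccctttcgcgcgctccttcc
Over the full 250 bases the Gad1 window held 1 GC box and 1 TATA box, the Gad2 window 1 CCAAT box and 1 cAMP response element core, and the Slc32a1 window none of the 5 motifs. Of 32851 windows in the table, 32.7% held the GC box, 12.4% the TATA box, 33.8% the CCAAT box, 4.84% the homeodomain core and 17.8% the cAMP response element core. The GC content was 58.0% for Gad1, 64.0% for Gad2 and 62.4% for Slc32a1, against a median of 52.4% over all windows. The Gad1 stretch lies inside the Gad1 gene as GENCODE M21 draws it, which begins further upstream at 70553072, so it precedes an internal start. These matches describe letters and say nothing of bound factors.

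The GABAergic genes were higher in the cuprizone group on average, but most of that difference came from 1 library. Gad1 stood at 56.9 CPM in cuprizone replicate 1, 159.6 CPM in cuprizone replicate 2, 40.9 CPM in mock replicate 1 and 24.1 CPM in mock replicate 2. Both cuprizone libraries lay above both mock libraries, and replicate 2 was 2.80 times replicate 1. The group means were 108 CPM ± 72.6 (SD, n = 2) and 32.5 ± 11.9 (n = 2), a log2 fold of 1.67 (SE 0.51) with an adjusted p of 0.272 by edgeR's quasi-likelihood test. Without cuprizone replicate 2 the log2 fold of Gad1 was 0.73, with an adjusted p of 0.517. Without cuprizone replicate 1 it was 2.23 and passed, with an adjusted p of 0.0418, in a run that called 0.717% of all genes.

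Gad2 had 14.2 CPM in cuprizone replicate 1, 41.4 CPM in replicate 2, and 18.3 and 13.9 CPM in mock replicates 1 and 2. Its groups overlapped, because cuprizone replicate 1 lay between the mock libraries. The log2 fold was 0.73 (SE 0.53) with an edgeR adjusted p of 0.655, and it was -0.26 without cuprizone replicate 2. Slc32a1 was scarce, with 7 and 74 counts in cuprizone replicates 1 and 2 and 17 and 39 counts in mock replicates 1 and 2. In CPM these were 0.321, 3.11, 0.769 and 1.84, so the lowest and the highest library were both cuprizone. All 3 GABAergic genes were highest in cuprizone replicate 2, as were 29.7% of all genes tested. Gad1, Gad2 and Slc32a1 were at least 2.5 times as high there as in cuprizone replicate 1, as were 6.2% of all genes tested. The 95% exact Poisson intervals, which cover counting error only, ran from 0.129 to 0.661 CPM and from 2.44 to 3.90 CPM for these cuprizone libraries and did not meet. Its log2 fold was 0.33 (SE 1.31), edgeR adjusted p = 0.969, and -2.08 without cuprizone replicate 2.

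**Figure D1:**
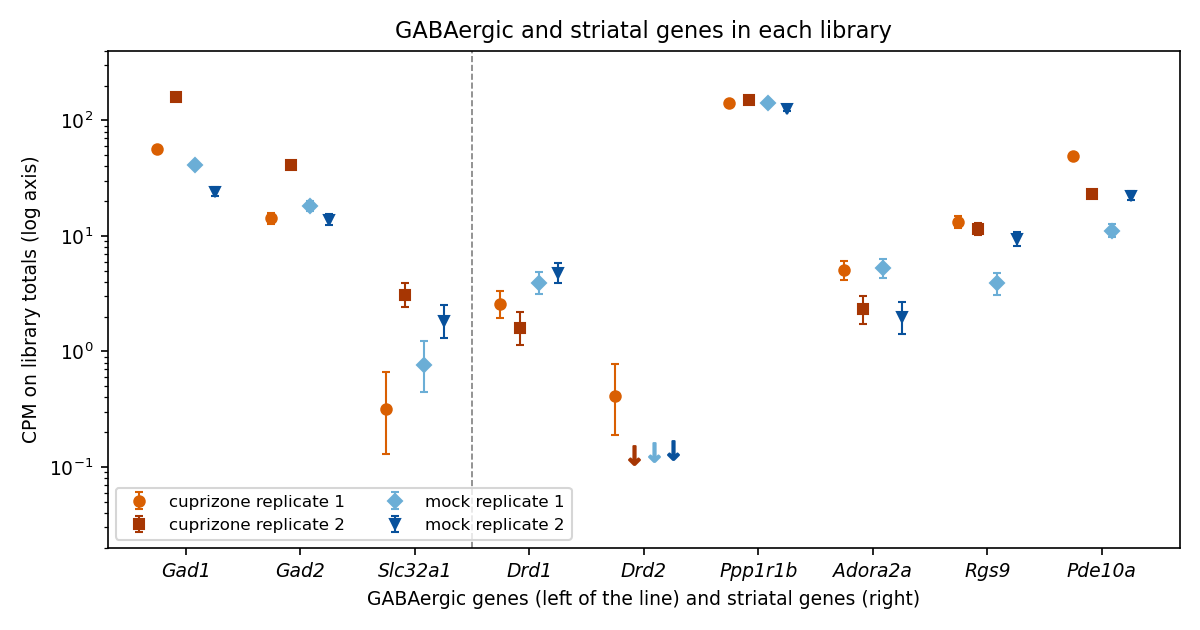
CPM of the 9 genes on library totals (log axis) in each of the 4 libraries, with 95% exact Poisson counting intervals; arrows stand for 0 counts and are drawn at the value of 3 counts. Cuprizone replicate 2 is the highest library for Gad1, Gad2 and Slc32a1, and Ppp1r1b lies between 126 and 149 CPM in all 4.

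Among the receptors of the striatal set, Drd1 was the only one whose groups did not overlap. It stood at 2.56 and 1.595 CPM in cuprizone replicates 1 and 2 and at 3.93 and 4.81 CPM in mock replicates 1 and 2, from 38 to 102 counts. Both cuprizone libraries were lower than both mock libraries, opposite to Gad1. The log2 fold was -1.14 (SE 0.68) and the edgeR adjusted p 0.569. Over the runs with 1 library left out the fold stayed negative, from -1.51 to -0.85.

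Of the receptors of the indirect pathway, Drd2 was near 0, while Adora2a averaged 3.65 CPM over the 4 libraries, against 3.23 CPM for Drd1. Drd2 had 9 counts in cuprizone replicate 1 (0.412 CPM) and 0 in the other 3 libraries. The limit of 3 counts there is 0.126 to 0.141 CPM, and the 2-sided 95% exact Poisson interval reaches 0.155 to 0.174 CPM. Drd2 was the 1 gene of the 9 that did not pass the filter on low counts, and no fold is given. Adora2a stood at 5.08 and 2.31 CPM in cuprizone and 5.25 and 1.98 CPM in mock replicates 1 and 2. Replicate 1 was the higher library in each group, and the groups overlapped almost fully, with a log2 fold of -0.04 (SE 0.78); the edgeR adjusted p was 0.994. It was 0.03 with scaling to library size, 0.41 without cuprizone replicate 2 and 0.83 without mock replicate 1.

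Of the intracellular signalling genes, Ppp1r1b was the steadiest. It had 141, 149, 139.8 and 126 CPM in cuprizone replicates 1 and 2 and mock replicates 1 and 2, a range of 1.18-fold. Its log2 fold of 0.05 (SE 0.16) had an edgeR adjusted p of 0.960. Ppp1r1b is also transcribed in deep-layer neurons of the cortex, so its level alone does not mark the striatum. The 16 genes of cortical excitatory neurons summed to 5049 and 4121 CPM in cuprizone and 4304 and 4628 CPM in mock replicates 1 and 2, with overlapping groups.

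Rgs9 and Pde10a were higher in both cuprizone libraries than in both mock libraries, by small margins. Rgs9 stood at 13.2 and 11.6 CPM in cuprizone and 3.89 and 9.43 CPM in mock replicates 1 and 2, a log2 fold of 0.83 (SE 0.53) with an edgeR adjusted p of 0.599. Mock replicate 1 was the low library, and without it the fold of Rgs9 was 0.32. Pde10a had 49.1 and 23.2 CPM in cuprizone and 11.1 and 22.2 CPM in mock replicates 1 and 2. Its log2 fold was 1.04 (SE 0.49), with an edgeR adjusted p of 0.445. Here cuprizone replicate 1 was the high library, and the counting intervals of cuprizone replicate 2 and mock replicate 2 overlapped. Without cuprizone replicate 1 the fold of Pde10a was 0.41, and without mock replicate 1 it was 0.63.

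EdgeR called 0 of the 8 genes tested at an adjusted p under 0.05, where it called 0.0822% of all 15816 genes. Gad1 alone had an unadjusted p under 0.05 (0.0162), as had 12.8% of all genes. DESeq2 called Gad1 (adjusted p = 0.00166) and none of the other 7, against 4.71% of all genes, and limma-voom called 0 of 8, against 0.297%. The adjusted p of Gad1 ran from 0.00166 to 0.552 over 13 alternatives, of which 2 called it. CPM were higher in both cuprizone libraries for Gad1, Ppp1r1b, Rgs9 and Pde10a, and lower in both for Drd1. Over all genes tested these shares were 25.7% and 18.9%, so such an order is common in this comparison.

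**Figure D2:**
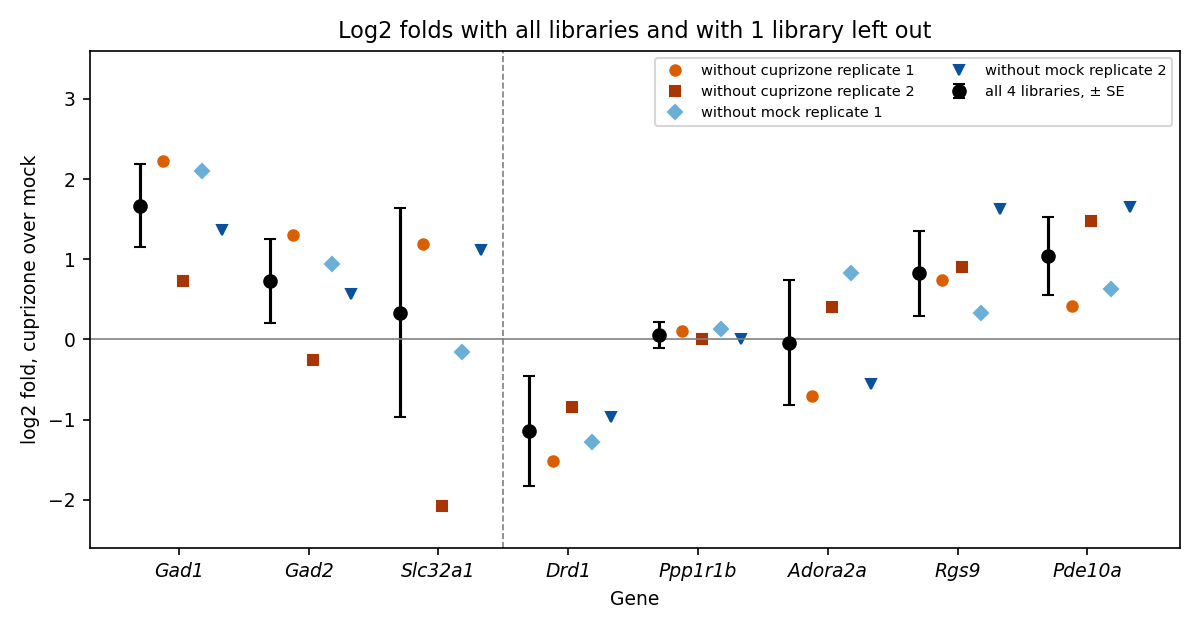
Log2 fold of cuprizone over mock for the 8 genes tested, with all 4 libraries (black, ± SE) and with each library left out. Without cuprizone replicate 2, Gad1 is at 0.73, Gad2 at -0.26 and Slc32a1 at -2.08, while Ppp1r1b runs from -0.00055 to 0.13.

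The general GABAergic and the striatal sets were then compared within each library. Summed CPM of the 3 GABAergic genes were 71.4 and 204 in cuprizone and 59.97 and 39.8 in mock replicates 1 and 2. Summed CPM of the 6 striatal genes were 211 and 188 in cuprizone and 164 and 165 in mock replicates 1 and 2. Striatal over GABAergic sums gave ratios of 2.95 and 0.920 in cuprizone and 2.74 and 4.13 in mock replicates 1 and 2. Cuprizone replicate 1 lay within the mock range of this ratio of summed CPM, which takes no account of gene length, and cuprizone replicate 2 was the 1 library below it.

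The mean GABAergic sum was 2.76 times as high in cuprizone as in mock libraries, and 1.43 times without cuprizone replicate 2. For the striatal sum the figure was 1.21 times, and 1.14 to 1.28 times when any 1 library was left out. The median log2 fold was 0.73 over the 3 GABAergic genes and 0.05 over the 5 striatal genes tested, against 0.00 over all genes tested. Striatal minus GABAergic medians differed by -0.67 with all libraries and by 0.67 without cuprizone replicate 2, so the order of the sets turned. A comparison of 2 with 2 libraries cannot give an exact 2-sided permutation p below 0.333, and no test was made on these sums. Ppp1r1b made up 66.6% to 85.2% of the striatal sum and Gad1 60.6% to 79.7% of the GABAergic sum, so each sum mostly follows 1 gene. Without Ppp1r1b the remaining striatal sum was 70.4 and 38.7 CPM in cuprizone and 24.2 and 38.4 CPM in mock replicates 1 and 2. The mean striatal over GABAergic ratio was lower in cuprizone (1.94 ± 1.44, SD, n = 2) than in mock libraries (3.43 ± 0.986, n = 2), but with Gad1 and Ppp1r1b left out it was higher, at 2.86 against 1.86, so its direction turned.

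**Figure D3:**
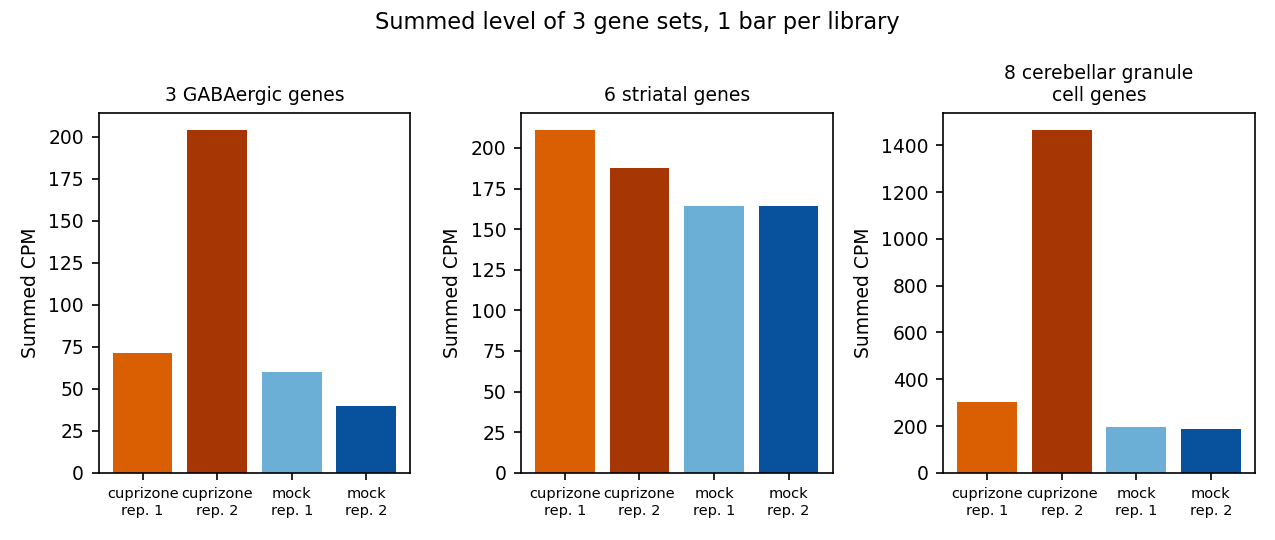
Summed CPM in each library (1 bar each) for the 3 GABAergic genes, the 6 striatal genes and 8 genes of cerebellar granule cells. Cuprizone replicate 2 reaches 204 CPM in the first panel and 1465 CPM in the third, whereas the striatal sums lie between 164 and 211 CPM.

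The balance of the decarboxylase genes differed between the groups in both replicates. Counts of Gad1 over counts of Gad2 gave 4.01 in cuprizone replicate 1 (95% counting interval 3.54 to 4.54) and 3.85 in replicate 2 (3.59 to 4.13). In mock replicate 1 the ratio was 2.24 (1.99 to 2.52) and in mock replicate 2 it was 1.74 (1.51 to 2.01). The ratio of Gad1 to Gad2 needs no scaling between libraries, and the cuprizone libraries differed little from each other in it although their Gad1 levels differed 2.80-fold. The mean ratio was 1.98 times as high in cuprizone as in mock libraries, and 1.76 to 2.26 times with any 1 library left out. Some cerebellar granule cell transcripts at 0 in mock were present in both cuprizone libraries (Gabra6 at 257 and 5109 counts, described below). Leaving out 1 library does not remove that difference between the groups, and its part in the ratio was not tested. This ratio was singled out after its values were seen, and no test was made.

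**Figure D4:**
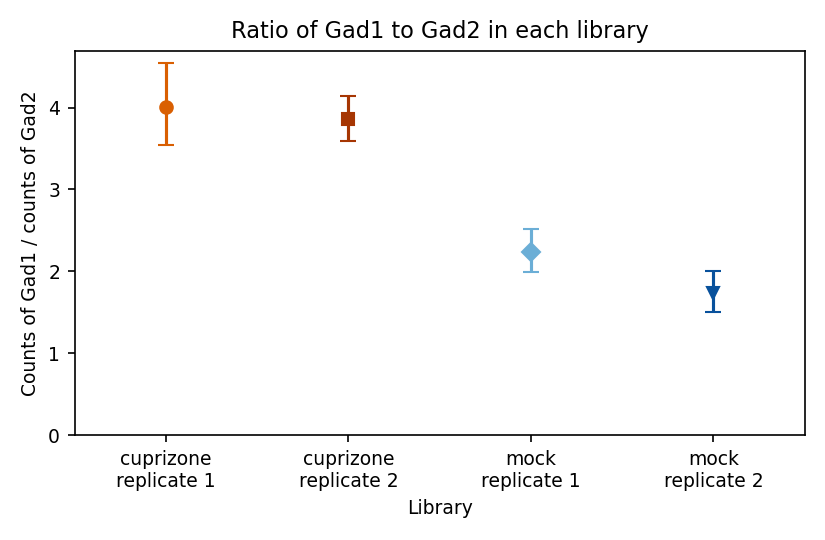
Counts of Gad1 divided by counts of Gad2 in each library, with 95% counting intervals. Both cuprizone libraries lie near 4 (4.01 and 3.85) and both mock libraries at 2.24 or below.

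Genes of cerebellar granule cells, like the GABAergic set, were highest in cuprizone replicate 2. The subunit gene Gabra6 of the GABA-A receptor, a defining marker of these cells, had 11.8 and 214 CPM in cuprizone replicates 1 and 2 and 0 counts in both mock libraries. Cbln3, which encodes a synaptic organiser of the cerebellum, had 22.4 and 331 CPM in cuprizone and again 0 counts in mock. Against 3 counts over the mock group, Gabra6 was at least 1697-fold and Cbln3 at least 2647-fold higher; with cuprizone replicate 1 alone these bounds were 169.96-fold and 323-fold. The sum over 8 such genes was 303 and 1465 CPM in cuprizone and 195 and 185 CPM in mock replicates 1 and 2; Gabra6, Cbln3 and Fat2 were at 0 in mock. All 8 were higher in both cuprizone libraries, as were 25.7% of all genes tested. The count called was 0 with edgeR (7 at an unadjusted p under 0.05), 6 with DESeq2 and 0 with limma-voom. Their median log2 fold, with genes at 0 in mock set at those bounds, was 4.47, and 2.39 without cuprizone replicate 2. The part of these transcripts in the levels of Gad1, Gad2 and Slc32a1 was not tested. Of the defining genes of Purkinje cells, the GABAergic output neurons of the cerebellum, Pcp2 had 0.05 and 2.01 CPM in cuprizone and 0 counts in mock. The 8 Purkinje genes tested had a median log2 fold of -0.19, which was 0.04 without cuprizone replicate 2. EdgeR, DESeq2 and limma-voom called 0 of these 8, and 0 had an unadjusted edgeR p under 0.05.

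Genes that mark GABAergic interneurons did not share 1 pattern. Of 23 tested, 9 had positive and 14 negative log2 folds, with a median of -0.11, which was 0.16 without cuprizone replicate 2 and 0.24 and 0.20 without mock replicates 1 and 2. No gene was called by edgeR or limma-voom, and 5 were by DESeq2; 4 higher and 4 lower had an unadjusted edgeR p under 0.05. Calb2, a calcium-binding protein also abundant in cerebellar granule cells, had 95.2 and 981 CPM in cuprizone and 44.9 and 35.8 CPM in mock replicates 1 and 2. Pvalb, another calcium-binding protein, of fast-spiking interneurons and Purkinje cells, had 24.3 and 102 CPM against 15.2 and 17.7 CPM. Like Gad1, both were highest in cuprizone replicate 2. The log2 fold of Calb2 was 3.68 with all libraries and 1.16 without that library. For Pvalb the folds were 1.87 and 0.48. The peptide gene Sst stood at 4.76 and 4.49 CPM in cuprizone and 15.7 and 13.1 CPM in mock replicates 1 and 2, with groups far apart. Its log2 fold was -1.71 (SE 0.41), edgeR adjusted p = 0.198 and DESeq2 adjusted p = 0.0307. Cck, also a peptide precursor and shared with cortical excitatory neurons, had 503 and 343 CPM against 699 and 713 CPM.

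Other genes of striatal projection neurons were measured to see whether the set's pattern reached beyond its 6 members. Of 25 listed, 24 were in the tables and 23 were tested; 15 had positive and 8 negative log2 folds, with a median of 0.19. That median was -0.22 without cuprizone replicate 1 and 0.42 without cuprizone replicate 2. The count called was 0 with edgeR (5 at an unadjusted p under 0.05, of which 3 positive), 2 with DESeq2 (Ebf1 higher, Penk lower) and 0 with limma-voom. CPM summed over this list were 1509 and 1207 in cuprizone and 1265 and 1336 in mock replicates 1 and 2, so the groups overlapped. The most abundant gene of the list alone gave 636 and 516 CPM in cuprizone and 571 and 482 CPM in mock, so the sum leans on it. As with Pde10a and Adora2a, cuprizone replicate 1 was above cuprizone replicate 2 for Adcy5, their main adenylyl cyclase (46.1 and 20.1 CPM), and for Rasd2, a small G protein (51.1 and 18.4 CPM).

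Of the 23 other striatal genes tested, 5 were lower in both cuprizone libraries, as Drd1 was, and 9 were higher in both. Over all genes tested these shares were 18.9% and 25.7%. The opioid precursors of the striatum stood on the side of Drd1. Penk, the enkephalin precursor of the indirect pathway, had 53.9 and 44.7 CPM in cuprizone and 81.2 and 92.7 CPM in mock replicates 1 and 2. Its log2 fold was -0.89 (SE 0.20), with adjusted p = 0.194 by edgeR and 0.0143 by DESeq2. Pdyn, the dynorphin precursor of the direct pathway, had 5.91 and 4.53 CPM against 12.6 and 9.29 CPM. The log2 fold of Pdyn was -1.14 (SE 0.45), edgeR adjusted p = 0.364. Chrm4, a muscarinic receptor of direct-pathway neurons, had 1.33 and 0.672 CPM against 2.58 and 3.58 CPM. In Penk, Pdyn and Chrm4, both cuprizone libraries were lower than both mock libraries. Rasgrp2, an exchange factor for the small G protein Rap1, had the opposite order, with 12.6 and 9.70 CPM in cuprizone and 2.89 and 3.58 CPM in mock replicates 1 and 2. The log2 fold of Rasgrp2 was 1.71 (SE 0.47), edgeR adjusted p = 0.244. Ebf1 and Isl1, transcription factors of the direct pathway, stood highest in cuprizone replicate 2. Ebf1 had 1.33 and 15.7 CPM against 0.407 and 1.18 CPM. Isl1 had 18 and 36 counts against 0 in both mock libraries, at least 17.1-fold higher, and at least 11.9-fold with cuprizone replicate 1 alone. These 8 examples beside the 6 members were chosen after their values were seen.

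**Figure D5:**
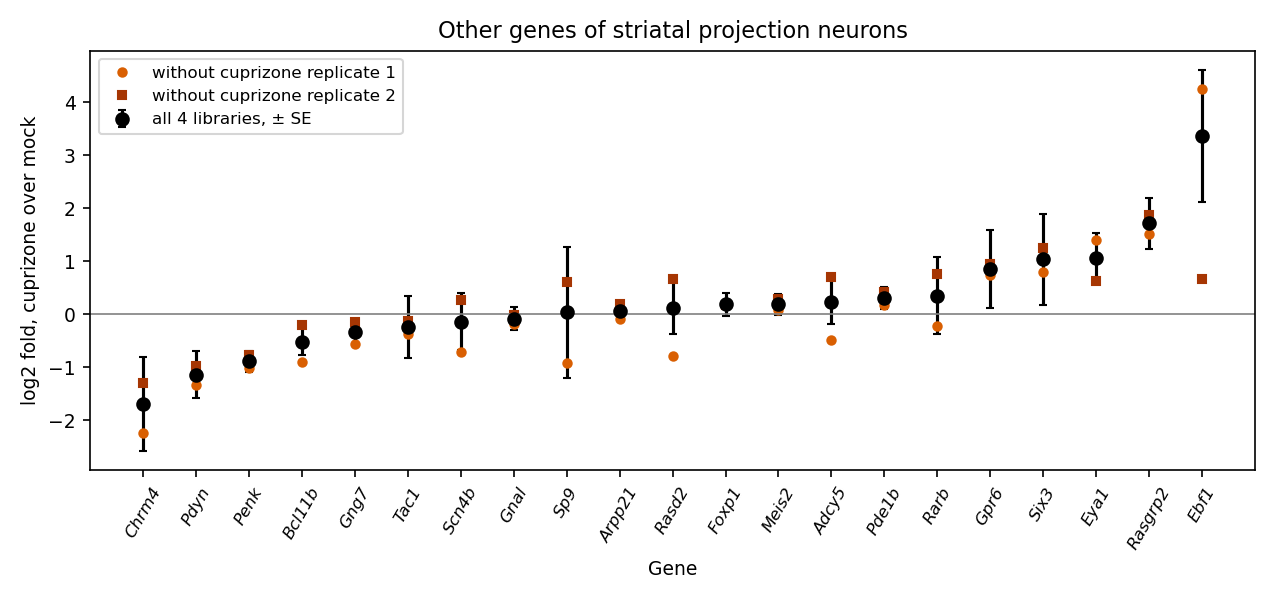
Log2 fold of cuprizone over mock for other genes of striatal projection neurons (not all are drawn; Isl1, at 0 in mock, is left out), with all libraries (black, ± SE) and without each cuprizone library. Values run from -1.69 for Chrm4 to 3.36 for Ebf1, which is at 0.66 without cuprizone replicate 2.

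The partners of these genes in dopamine and cAMP signalling, most of them expressed by many cell types, were all detected. Among 27 tested, 23 had positive log2 folds, and the median was 0.21 (0.13 without cuprizone replicate 1 and 0.30 without cuprizone replicate 2). Of the 27, 17 were higher in both cuprizone libraries, as were 25.7% of all genes tested. The count called was 0 with edgeR (5 at an unadjusted p under 0.05, all positive), 3 with DESeq2 and 0 with limma-voom. Gnb5, the G beta subunit that pairs with Rgs9, had 289.996 and 313 CPM in cuprizone and 235 and 210.2 CPM in mock replicates 1 and 2. Its log2 fold was 0.37 (SE 0.15), edgeR adjusted p = 0.388. Rgs7bp, which anchors Rgs9 at the membrane, stood at 546 and 409 CPM against 445 and 493 CPM, with overlapping groups. Genes of dopamine synthesis and handling were detected unevenly. Th, tyrosine hydroxylase, had 0 counts in 3 libraries and 0.962 CPM in cuprizone replicate 1, and Slc6a3, the dopamine transporter, had 0 counts in 3 libraries and 0.236 CPM in mock replicate 2. Ddc, the decarboxylase that forms dopamine and also serotonin, was present in all libraries, at 31.7 and 27.7 CPM in cuprizone and 16.1 and 28.6 CPM in mock replicates 1 and 2, with overlapping groups. Slc18a2, the vesicular monoamine transporter, had 2.70 and 9.03 CPM against 3.35 and 9.10 CPM and overlapped too. The receptor gene Drd3 had 0 counts in all 4. Markers of cholinergic neurons, a small striatal population, were near 0, with list sums of 0 to 1.13 CPM.

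Genes of GABA uptake and breakdown did not, as a list, share the positive fold of Gad1. Of 8 tested, 3 had positive log2 folds, the median was -0.04 (0.08 without cuprizone replicate 1 and -0.34 without cuprizone replicate 2), and the count called was 0 with edgeR (1 at an unadjusted p under 0.05), 1 with DESeq2 and 0 with limma-voom. Abat, the enzyme that breaks GABA down, had 148 and 249 CPM in cuprizone and 183 and 198 CPM in mock replicates 1 and 2. Its groups overlapped. Cuprizone replicate 1 was the lowest library and cuprizone replicate 2 the highest, as it was for Gad1. Glul, the glutamine synthetase of astrocytes, was lower in both cuprizone libraries, at 901 and 814 CPM against 1267 and 1210 CPM, a log2 fold of -0.60 (SE 0.13), with adjusted p = 0.178 by edgeR and 0.00741 by DESeq2.

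To rank single genes, levels were taken as CPM per kilobase of merged exons, while the sums, shares and ratios above take no account of length. Averaged over the 4 libraries, this level was 47.4 for Ppp1r1b, 9.21 for Gad1, 3.73 for Gad2, 2.06 for Pde10a, 1.49 for Rgs9, 1.19 for Adora2a, 0.889 for Drd1, 0.539 for Slc32a1 and 0.0405 for Drd2. Ppp1r1b led in every library, from 43.1 to 50.9 CPM per kilobase. Gad1 was next, from 3.16 to 20.9. Below them the order was not fixed: Gad2 ran from 2.36 to 7.04, Pde10a from 0.866 to 3.82, Rgs9 from 0.609 to 2.06 and Drd1 from 0.440 to 1.33 CPM per kilobase, ranges that overlap between neighbours.

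On GRCm38, in the annotation of GENCODE M21, Gad1 (ENSMUSG00000070880) spans 70553072 to 70602014, Gad2 (ENSMUSG00000026787) 22622205 to 22693874 and Slc32a1 (ENSMUSG00000037771) 158610767 to 158615748, all on the plus strand of chromosome 2. Drd1 (ENSMUSG00000021478) lies at 54051183 to 54055705 on chromosome 13, Drd2 (ENSMUSG00000032259) at 49340627 to 49408177 on chromosome 9 and Adora2a (ENSMUSG00000020178) at 75316877 to 75334784 on chromosome 10. Ppp1r1b (ENSMUSG00000061718) and Rgs9 (ENSMUSG00000020599) lie on chromosome 11, at 98348404 to 98357796 and 109225355 to 109298129, and Pde10a (ENSMUSG00000023868) at 8525372 to 8986648 on chromosome 17. The deposited values are totals per gene, so no exon or UTR has a value of its own. Antisense genes share 697 exonic bases with Slc32a1 and 460 with Ppp1r1b; both had 0 counts in all 4 libraries, and the strand setting of the counting is not given in the sources used here.

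The genes nearest to each set's mean profile were named by root mean square distance between centred log2(CPM + 0.5) values over the 4 libraries, among 10987 other genes with a mean of at least 5 CPM. For the striatal set they were Lmo7 (distance 0.0043), Rpa3, Ube2r2, Zfp653 and Sfswap (0.0266). For the GABAergic set they were Pard6g (0.0667), Ppp2r1b, 4930503L19Rik, Bag3 and Clic1 (0.0935). With 4 libraries, such closeness is a description only.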

How the data were processed

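Ribosome-bound RNA was measured in 2 cuprizone and 2 mock libraries. The authors deposited raw counts per Ensembl gene, not normalized, in 1 table per library. The submitters' processing notes name FastQC 0.11.9, STAR 2.5.4b, featureCounts 1.6.0 and GRCm38 (mm10); for annotation release, strand setting and multi-mapping reads: not given in the sources used here. Symbols matched 55144 of 55471 ids; the other 327 held at most 0.023% of a library's counts. CPM use library totals.

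Log2 folds, cuprizone over mock, came from edgeR 4.0.16 (R 4.3.3): filterByExpr, TMM, glmQLFit (robust, the installed default of dispersion estimation) and glmQLFTest, 2-sided, Benjamini-Hochberg over 15816 genes, threshold 0.05; SE is the fold over the square root of F. DESeq2 1.42.0, limma 3.58.1 (voom), other scalings and filters, a replicate block and each library left out were alternatives. In runs with 1 library left out, the lone library is assumed to vary like the other group. The pipeline was tested on simulated data. Members and all 19 lists were chosen with earlier results of these data known. All members are named. Some genes of other lists enter counts and sums but are not reported here. From other lists, examples were meant to be called genes or the 2 most abundant; most named here were chosen after their values were seen.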

Additional observations from a re-analysis of the deposited data

How the results depend on the processing

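The count of genes called over the whole table was 13 (5 higher, 8 lower). It was 191 (45 and 146) with no filter on low counts, 68 (14 and 54) for genes averaging 1 CPM or more, 761 (299 and 462) with DESeq2, 47 (9 and 38) with limma-voom and 51 (9 and 42) with bias-adjusted dispersions. Leaving out 1 library gave 5 (without either mock library) to 123 (without cuprizone replicate 1) calls, 2 to 52 higher and 3 to 71 lower. With the replicate number as a block the count was 10, 5 of them lower. Deviations of same-numbered libraries from their group means correlated at r = 0.002 across 15816 genes. With 2 libraries per group, this cannot show whether same-numbered libraries were handled together. The block called none of the 8 genes tested.

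Gad1 was called with DESeq2 (log2 fold 1.68) and without cuprizone replicate 1 (2.23), and kept a positive fold in all 13 alternatives; Pde10a and Rgs9 stayed positive and Drd1 negative in all 13. Folds changed sign for Gad2 without cuprizone replicate 2 (-0.26), and for Slc32a1 with limma-voom (-0.21), with the replicate block (-0.27), without cuprizone replicate 2 (-2.08) and on leaving out mock replicate 1 (-0.16); the highest fold of Slc32a1 with 1 library left out was 1.19. Ppp1r1b ran from -0.00055 (without cuprizone replicate 2) to 0.13. Adora2a was at 0.0315 with library-size scaling, 0.0158 with the replicate block and 0.41 without cuprizone replicate 2, and its range over single left-out libraries was -0.71 to 0.83 (mock replicate 1). The cause of these moves was not tested. With 1 library left out, the GABAergic median ran from -0.26 to 1.30 and the striatal minus GABAergic median from -1.20 to 0.67.

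Without Gad1 and Ppp1r1b, the mean GABAergic sum was 29.5 CPM in cuprizone and 17.4 in mock, the mean striatal sum 54.5 and 31.3, and the mean ratio of striatal to GABAergic sums 2.86 and 1.86, opposite in direction to 1.94 and 3.43 with all members. TMM factors moved the mean striatal sum in mock to 168 CPM. List medians with 1 library left out, runs on the sums and on the ratio of Gad1 to Gad2, and bounds without cuprizone replicate 2, were added after the data were seen. Drd2 is limited by depth. Slc32a1 is limited by low counts and by the spread between the cuprizone libraries (7 and 74 counts in replicates 1 and 2).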
